A study of Mus musculus with 39 samples.

Results

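The colony-stimulating factors and their receptors comprised 7 genes, taken from the 16144 gene symbols of the raw count table by exact match to a fixed list of names, and all 7 listed names were found. They were the receptor Csf1r and its ligand Csf1, the ligand Csf3 and its receptor Csf3r, and the receptor chains Csf2ra, Csf2rb and Csf2rb2. All were measured in 39 libraries of microglia, the resident macrophages of the brain, cultured from newborn C57BL/6 mice. Donor microglia had been given 1 µM alpha-synuclein carrying the dye Atto-488 for 14 h, in a 24-well plate seeded with typically 250000 cells in each well. Acceptor microglia had been stained with CellTracer Violet for 15 min at typically 6000000 cells per T25 flask. Donors and acceptors were then kept in co-culture without direct contact, and each was sampled at 0, 15, 30, 60, 150 and 300 min, with 3 libraries per population and time (18 donor and 18 acceptor libraries). The third population was a control at 0 min with 3 libraries, for which the sources used here state no vessel or density. The letters TW in the donor and acceptor names are not defined there, nor is it said whether the 3 libraries of a group came from separate cultures, so p-values measure the spread between libraries, which may be technical. All cells had been shaken off a layer of astrocytes after 7 to 10 days in medium with 10% fetal calf serum and 1% supernatant of L929 cells, a fibroblast line that secretes M-CSF. Alpha-synuclein with its dye, CellTracer Violet staining, plating density and vessel differed together between donors and acceptors. Their parts in a difference between these populations cannot be told apart.

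Colony-stimulating factors are secreted proteins that keep myeloid cells alive and drive their growth and maturation. Csf1 encodes M-CSF, which with interleukin-34 binds the receptor tyrosine kinase encoded by Csf1r, and microglia in the brain depend on this receptor for their survival. Csf3 encodes G-CSF, best known for driving neutrophil production, and Csf3r encodes its receptor, which signals as a pair of identical chains through JAK kinases and STAT3. Csf2ra encodes the ligand-binding alpha chain of the GM-CSF receptor, and Csf2rb the beta chain that it shares with the receptors for interleukin-3 and interleukin-5. Mice carry a second beta chain gene, Csf2rb2, whose product serves interleukin-3 alone.

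Promoters are shown for 3 receptor genes because 2 of them, Csf3r and Csf2rb2, had higher levels in donors while the third, Csf2ra, mostly did not differ. Each sequence runs 5′ to 3′ on the strand of the gene, from 250 bases before its RefSeq start to 50 bases after, in build GRCm38.p6. Capitals mark GAGGAA, the core letters bound by PU.1, the myeloid factor encoded by Spi1, or their complement TTCCTC.
Csf3r, plus strand, chr4:126024409-126024708: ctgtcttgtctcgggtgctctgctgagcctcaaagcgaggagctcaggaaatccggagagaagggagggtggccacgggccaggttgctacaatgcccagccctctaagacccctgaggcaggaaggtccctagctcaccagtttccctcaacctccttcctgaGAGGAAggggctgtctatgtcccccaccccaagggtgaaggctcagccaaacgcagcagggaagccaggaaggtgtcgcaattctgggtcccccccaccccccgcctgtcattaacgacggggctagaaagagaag
Csf2rb2, minus strand, chr15:78305672-78305971: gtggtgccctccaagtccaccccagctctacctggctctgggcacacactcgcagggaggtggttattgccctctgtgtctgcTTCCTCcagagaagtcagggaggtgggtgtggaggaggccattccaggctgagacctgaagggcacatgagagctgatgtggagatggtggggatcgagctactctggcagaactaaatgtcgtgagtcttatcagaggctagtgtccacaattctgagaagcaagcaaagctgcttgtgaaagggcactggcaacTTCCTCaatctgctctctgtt
Csf2ra, minus strand, chr19:61228369-61228668: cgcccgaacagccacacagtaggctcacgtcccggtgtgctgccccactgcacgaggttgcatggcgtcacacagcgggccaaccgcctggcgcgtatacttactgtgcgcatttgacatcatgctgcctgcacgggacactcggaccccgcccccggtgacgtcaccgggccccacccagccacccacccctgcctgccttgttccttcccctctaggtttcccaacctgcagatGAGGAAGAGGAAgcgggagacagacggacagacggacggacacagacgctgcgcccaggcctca
In Csf3r the marked letters begin 86 bases before the start, and in Csf2ra they begin 14 and 8 bases before it. These distances are from RefSeq starts. In the GENCODE positions given below, Csf3r and Csf2ra start further upstream. By those, the match in Csf3r and the second in Csf2ra lie inside the gene. In Csf2rb2 both matches are on the other strand, and their marked letters begin 167 bases before the start and 29 bases after it. Of 32851 mouse promoters of this length, 28.3% held GAGGAA on either strand. Promoter sequences were matched for 4 of the 7 genes, and the promoter of Csf1, the fourth, held no such match. Of 2 other motifs searched on both strands, the NF-kB letters GGGA and TCC parted by 3 free bases occurred in the promoters of Csf1 and Csf3r and in 4.59% of all promoters, and the AP-1 letters TGANTCA in none of the 4 and in 7.81% of all promoters. The motifs were chosen with these promoters in view, and binding was not measured.

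Levels are given in CPM, reads scaled to a common library total with TMM factors, and tags were read near transcript 3′ ends, so a count does not grow with transcript length. Per library, the 18 donors held 8753743 to 15910662 reads, the 18 acceptors 8649169 to 14743934, and the 3 control libraries 10249066 to 11587525. All 10 markers fixed for microglia and macrophages had reads, and their summed level was 6286 to 10151 CPM in donors, 11562 to 34385 CPM in acceptors and 13363 to 15901 CPM in the control. One acceptor library stood apart, replicate 2 at 300 min, which had fewer reads (8649169) and fewer detected genes (11951) than any other. Library numbers in the titles form 3 runs of 13 consecutive numbers, each holding every group once. What the runs mark is not given in the labels, and they are called runs 1, 2 and 3 here.

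At 0 min, 4 of the 6 genes other than Csf3 differed between donors and the control by the quasi-likelihood test of edgeR (Benjamini-Hochberg adjusted p under 0.05), against 19.7% of all 13034 genes tested (10.3% higher and 9.34% lower). Csf1r was lower in donors, and Csf2rb, Csf2rb2 and Csf3r were higher. Csf3 was also higher, but it passed the filter on low counts only through donor groups, so it is left out of this count. The same 4 genes differed between donors and acceptors at 0 min, where 22.8% of all genes passed (12.1% higher, 10.7% lower), and donors were a common part of both comparisons. Between acceptors and the control at 0 min none of the 7 passed, and 0% of all genes did. That count of 0 also held with DESeq2 and limma-voom for the 7 genes, and none of them had an unadjusted p under 0.05 in edgeR, where 263 of all genes did.

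**Figure D1:**
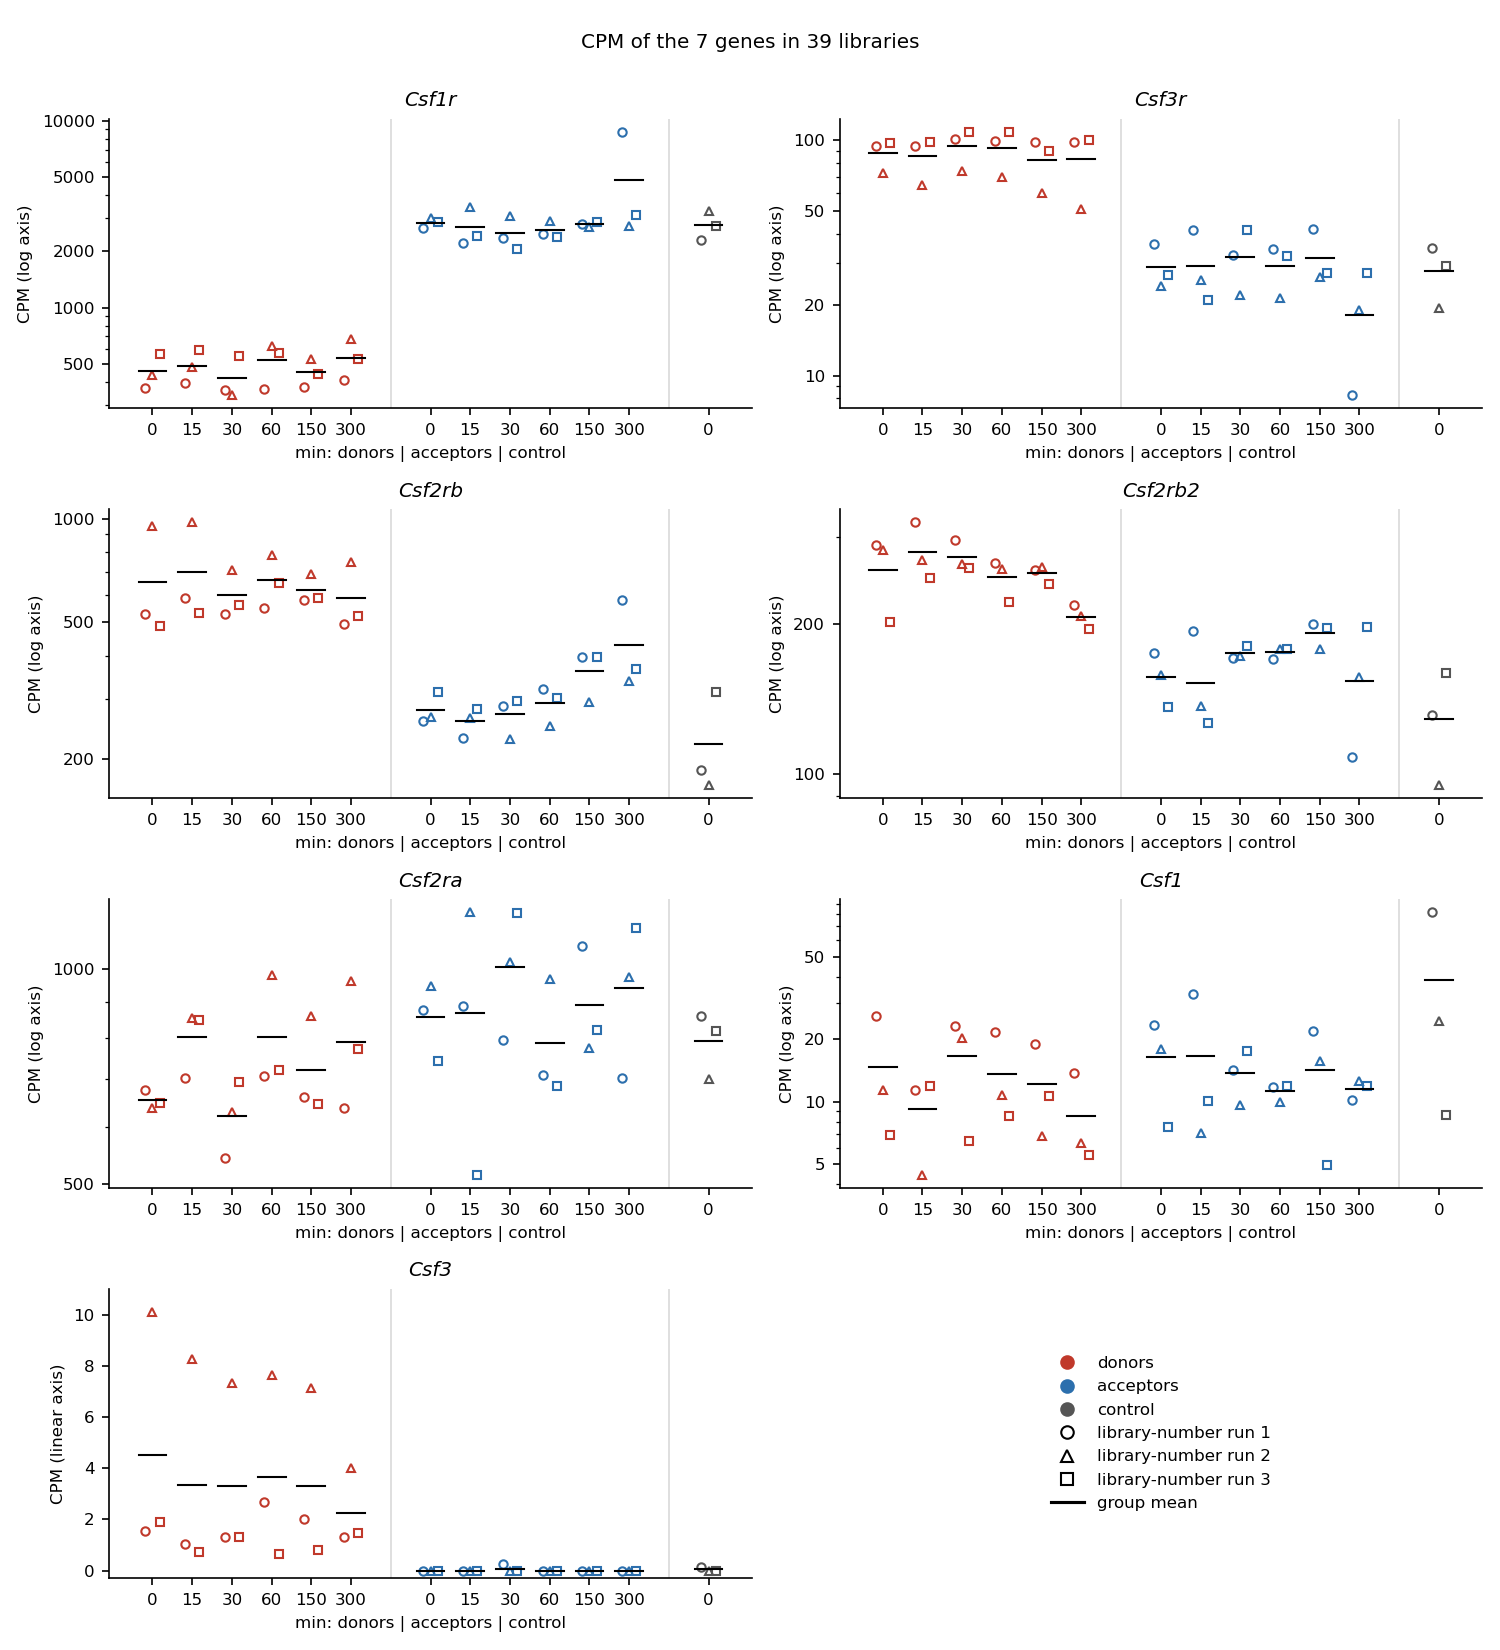
Level of each of the 7 genes in every library (CPM, log axes) for donors, acceptors and the control by minutes of co-culture; each point is 1 library, its shape the run of library numbers, and lines are group means. Csf3 is on a linear axis. Donors lie apart from the other populations for Csf1r (339 to 677 CPM in donors, 2058 to 8696 CPM in acceptors), Csf3 and Csf3r, and overlap them for Csf1 and Csf2ra.

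Csf1r lies at chr18:61100598-61132149 on the plus strand of GRCm38, and its annotated span overlaps the end of Hmgxb3 on the opposite strand and the microRNA gene Mir6983. The sources used here do not say whether counting used strand, so reads of Csf1r and Hmgxb3 in the overlap may not have been told apart. At 0 min Csf1r had 561, 369.8 and 433 CPM in donors, 3007, 2876 and 2654 CPM in acceptors, and 3309, 2739 and 2292 CPM in the control. No donor library reached the lowest acceptor or control library. Csf1r was thus 6.12-fold lower in donors than in the control (log2 fold change −2.61 ± 0.32 SE, adjusted p = 2.60e-07) and 6.26-fold lower than in acceptors (−2.65 ± 0.32, adjusted p = 2.05e-07). Acceptors and the control differed by 0.03 ± 0.30 on the log2 scale, with a 95% interval of −0.55 to 0.62 and an adjusted p of 1.00. In these bulk libraries, fewer cells carrying a transcript and less of it per cell cannot be told apart. The 10 markers of microglia and macrophages were also mostly lower in donors than in acceptors at 0 min, with 6 called lower and 1 higher (median log2 −1.06; 10.7% lower and 12.1% higher over all genes), and the part of this in the Csf1r level was not tested.

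The lower level of Csf1r in donors was present at every time. Over 0, 15, 30, 60, 150 and 300 min, donors averaged 455 ± 97.1, 488 ± 97.7, 417 ± 116, 521 ± 136, 449 ± 78.9 and 538 ± 135 CPM (SD, n = 3 each). Acceptors averaged 2846 ± 178, 2698 ± 669, 2505 ± 529, 2597 ± 284, 2793 ± 82.5 and 4847 ± 3339 CPM at these times, and the control averaged 2779.7 ± 509.9 CPM. All 18 donor libraries lay below all 18 acceptor libraries, and the log2 difference between donors and acceptors was between −3.17 and −2.32 at the 6 times, each past the threshold. The wide spread in acceptors at 300 min came from the library that stood apart, which had 8696 CPM while the other 17 acceptor libraries had 2058 to 3462 CPM. Without it acceptors at 300 min averaged 2923 ± 273 CPM (n = 2), and the difference there was −2.44 (adjusted p = 3.00e-08) in place of −3.17.

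Csf1, the gene for the Csf1r ligand, lies at chr3:107741048-107760469 on the minus strand. It was a low transcript with a wide spread. At 0 min it had 6.87, 26.0 and 11.4 CPM in donors, 17.95, 7.57 and 23.5 CPM in acceptors, and 24.5, 8.62 and 82.1 CPM in the control. The 3 groups overlapped, and the highest control library held more than the other 38 libraries. Donors and the control differed by −1.37 ± 0.65 on the log2 scale (95% interval −2.64 to −0.11), which did not pass after adjustment (adjusted p = 0.136). Donors and acceptors at 0 min differed by −0.14, with an interval of −1.39 to 1.11.

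Averages of Csf1 over the 6 times were 14.8 ± 9.99, 9.22 ± 4.17, 16.6 ± 8.88, 13.7 ± 7.00, 12.1 ± 6.15 and 8.52 ± 4.52 CPM in donors. Acceptors averaged 16.3 ± 8.09, 16.7 ± 14.1, 13.8 ± 3.95, 11.2 ± 1.07, 14.2 ± 8.57 and 11.6 ± 1.23 CPM, and the control 38.4 ± 38.6 CPM. No time separated donors from acceptors, and their log2 differences, −0.85 to 0.28, never passed. Only donors at 300 min against the control at 0 min passed for Csf1 among the comparisons made (−2.17 ± 0.67, adjusted p = 0.0206). That call rested on the highest control library: without control replicate 3 the difference was −0.95 (adjusted p = 0.362), and it was also lost without donor replicate 1 or 2 (0.0862 and 0.0949).

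Csf3, at chr11:98701263-98703629 on the plus strand, was read almost only in donors. It had 615 reads over the 18 donor libraries, 8 to 91 in each, against 3 reads in 1 of 18 acceptor libraries and 2 reads in 1 of 3 control libraries. At 0 min the donor libraries had 23, 22 and 91 reads (1.90, 1.56 and 10.1 CPM), the acceptor libraries had 0 reads, and the control libraries had 0, 0 and 2 reads. Every donor library lay above every acceptor and control library. A floor of 3 reads corresponds to 0.181 to 0.414 CPM in single libraries, so the level outside donors was at or under what this depth resolves.

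Since Csf3 had almost no reads outside donors, its fold changes are given from read sums and not from the fitted model. At 0 min the donors' Csf3 level was 71.6 times that of the control, with an exact 95% counting interval of 19.4 to 597, and at least 51.3-fold higher than in acceptors, taking a floor of 3 reads over the acceptor group. These values rested largely on donor replicate 3, with 91 of the 136 reads: without it they were 31.8 times and at least 22.8-fold, and without control replicate 3, which held the 2 control reads, at least 30.9-fold against the control. Against acceptors of the same time it was at least 35.8-fold higher at 15 min, 42.4 times as high at 30 min (interval 14.1 to 208), and at least 47.3-fold, 44.8-fold and 25.4-fold higher at 60, 150 and 300 min. With 1 library of either group left out in turn, the lowest of these values from 15 to 300 min were 12.1, 17.3, 23.2, 18.9 and 15.0, the first 4 of them without the donor library with the most Csf3 reads and the last without acceptor replicate 3. These intervals and floors reflect counting error alone and leave out the spread between libraries. No molecular identifiers are described for these reads, so repeated reads of 1 molecule cannot be told apart and the intervals may be too narrow. In edgeR's test Csf3 passed against the control at 0 min (adjusted p = 0.00698) and against acceptors at all 6 times. At 30 min the call was lost without acceptor replicate 1 or 3 or donor replicate 2 (adjusted p of 0.0599 to 0.0822). With a whole run left out it was lost without run 2 at 15 and 30 min (0.0579 and 0.211) and without run 1 at 300 min (0.0543). Csf3 reached the cutoff of the filter on low counts in 15 libraries, all from donors, and in every library of 3 donor groups. Its presence among the genes tested thus already required a difference, and its calls are given as a description.

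Csf3r, the G-CSF receptor gene at chr4:126024550-126044440 on the plus strand, was higher in donors than in acceptors at all 6 times. At 0 min it had 97.95, 94.7 and 72.8 CPM in donors, 24.0, 26.8 and 36.3 CPM in acceptors, and 19.4, 29.3 and 34.9 CPM in the control. The lowest donor library was above the highest library of the other groups. Csf3r was 3.17-fold higher in donors than in the control (log2 1.67 ± 0.34, adjusted p = 5.48e-04) and 3.05-fold higher than in acceptors (1.61 ± 0.34, adjusted p = 6.74e-04).

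Over the 6 times Csf3r averaged 88.5 ± 13.7, 86.3 ± 18.6, 94.6 ± 18.2, 92.6 ± 20.0, 82.9 ± 20.4 and 83.6 ± 28.1 CPM in donors. In acceptors it averaged 29.0 ± 6.44, 29.4 ± 10.9, 32 ± 9.77, 29.4 ± 6.95, 31.8 ± 8.74 and 18.2 ± 9.501 CPM, and in the control 27.9 ± 7.87 CPM. All 18 donor libraries, at 51.2 to 109 CPM, lay above all acceptor libraries, at 8.25 to 41.8 CPM. The log2 difference was between 1.38 and 2.19, the largest at 300 min. There the acceptor library that stood apart had 8.25 CPM, below the 19.1 to 41.8 CPM of the other 17, and without it the difference was 1.85 (adjusted p = 2.97e-04). Csf1r and Csf3r thus had no overlap between donors and acceptors at any of the 6 times. Nor did Csf3, which passed the filter on low counts through donor groups alone. The share of all genes without such overlap was not counted.

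The beta chain genes Csf2rb (chr15:78325752-78353847, plus strand) and Csf2rb2 (chr15:78282507-78305721, minus strand) lie 20.0 kb apart and are close copies. In the last 1000 bases of their longest transcripts, where 3′ tags are read, they shared 0 of 901 stretches of 100 bases, the read length. Over the whole transcripts they shared 334, which is 6.96% of those in Csf2rb and 7.20% of those in Csf2rb2, so tags from further inside may be ambiguous.

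Csf2rb, the common beta chain, had 487, 527 and 953 CPM in donors at 0 min, 265, 314 and 258 CPM in acceptors, and 168, 312 and 186 CPM in the control. Donors did not overlap either group. The level in donors was 2.95-fold that of the control (log2 1.56 ± 0.27, adjusted p = 5.86e-05) and 2.35-fold that of acceptors (1.23 ± 0.26, adjusted p = 7.90e-04). Csf2rb2, the chain used by interleukin-3 in mice, had 202, 289.6 and 282 CPM in donors, 158, 136 and 175 CPM in acceptors, and 94.8, 159.9 and 131 CPM in the control. Here too the lowest donor library was above all others at 0 min, by a smaller margin. Csf2rb2 was 2.004-fold higher in donors than in the control (1.00 ± 0.20, adjusted p = 3.38e-04) and 1.65-fold higher than in acceptors (0.72 ± 0.20, adjusted p = 0.00708).

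Between 0 and 300 min Csf2rb averaged 656 ± 258, 699 ± 242, 599 ± 96.6, 661 ± 118, 619.8 ± 60.7 and 588 ± 139 CPM in donors. Acceptors averaged 279 ± 30.4, 258 ± 24.9, 270.1 ± 36.5, 290.4 ± 36.6, 362 ± 59.6 and 428 ± 132 CPM, and the control 222 ± 78.8 CPM. The log2 difference between donors and acceptors passed from 0 to 150 min and was smallest at 300 min (0.46 ± 0.26, adjusted p = 0.216), where the groups overlapped. The acceptor library that stood apart had 580 CPM, while the other 17 had 228 to 397 CPM, and without it the difference at 300 min was 0.74 (adjusted p = 0.0614). At 150 min the call (0.78 ± 0.26, adjusted p = 0.0301) was lost without any 1 of 5 of the 6 libraries compared, with adjusted p of 0.0517 to 0.138.

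Csf2rb2 averaged 258 ± 48.6, 279.9 ± 37.6, 274 ± 19.8, 249 ± 24.0, 253 ± 10.6 and 207 ± 11.5 CPM in donors over the same times. The acceptor averages were 157 ± 19.5, 152 ± 36.3, 175 ± 5.30, 176 ± 4.72, 192 ± 11.6 and 154 ± 44.8 CPM, and that of the control was 129 ± 32.6 CPM. It passed at 0, 15 and 30 min and not at 60, 150 and 300 min, where the log2 differences were 0.50 ± 0.20, 0.40 ± 0.20 and 0.43 ± 0.20 (adjusted p = 0.0618, 0.144 and 0.112). The call at 0 min was lost without acceptor replicate 2 (adjusted p = 0.0540), that at 30 min was lost without donor replicate 1 (0.0658), and Csf2rb2 became called at 300 min without acceptor replicate 1 (0.0275). Donors and acceptors overlapped at 1 of the 6 times, 300 min, and 17 of 18 donor libraries were above all acceptor libraries. In the acceptor library that stood apart Csf2rb2 had 108 CPM, the lowest of the 18, and without it the difference at 300 min was 0.23 (adjusted p = 0.462). Csf2rb took 71.0% ± 4.53 of the reads of both beta chains in donors, 64.5% ± 6.47 in acceptors (SD, n = 18 each) and 62.9% ± 3.91 in the control (SD, n = 3), with overlapping ranges.

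Csf2ra, the GM-CSF receptor alpha chain gene at chr19:61223957-61228429 on the minus strand, mostly did not separate the populations. At 0 min it had 648, 676 and 639 CPM in donors, 946, 743 and 877 CPM in acceptors, and 702, 819 and 859 CPM in the control. Donors were below both groups without overlap, yet neither difference passed, at −0.39 ± 0.24 against acceptors (95% interval −0.85 to 0.07, adjusted p = 0.253) and −0.28 ± 0.24 against the control (interval −0.74 to 0.18, adjusted p = 0.443). Over the 6 times donors averaged 654 ± 19.0, 802 ± 85.5, 622 ± 75.9, 803 ± 153, 722 ± 118 and 791 ± 162 CPM. Acceptors averaged 855 ± 103, 868 ± 345, 1005 ± 202, 788 ± 156, 891 ± 162 and 940.2 ± 222 CPM, and the control 793 ± 81.7 CPM. The groups overlapped at 4 of the 6 times. At 30 min alone the test was passed (−0.69 ± 0.24, adjusted p = 0.0316), and leaving out any of 4 of the 6 libraries there lost the call, with adjusted p of 0.0736 to 0.160.

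Counted by time over the 6 genes other than Csf3, donors and acceptors differed in 4 at 15 min, where 21.9% of all genes passed (11.7% higher, 10.2% lower), in 5 at 30 min (22.6% of all genes, 11.9% higher and 10.8% lower) and in 3 at 60 min (22.2%, 12.5% higher and 9.69% lower). At 150 min 3 differed (22.1% of all genes, 11.8% higher and 10.2% lower) and at 300 min 2 did (23%, 11.4% higher and 11.6% lower). Of these 6, Csf1r was the one called lower at all 6 times, and Csf3r the one called higher at all 6. Against the control at 0 min, 5 of the 6 differed in donors at 300 min, where 18.1% of all genes passed (9.87% higher, 8.2% lower). Csf1r was lower there, with a log2 difference of −2.37 ± 0.32, and Csf2rb, Csf2rb2 and Csf3r were higher by 1.40 ± 0.27, 0.69 ± 0.20 and 1.58 ± 0.34. Without 1 library, control replicate 1, Csf2rb2 was not called there (adjusted p = 0.111), and the call of Csf3 was lost without control replicate 1 or 2 or donor replicate 1 (0.0711 to 0.0891). Csf2ra did not pass in that comparison (−0.00, 95% interval −0.47 to 0.46). Donors at 300 min differ from the control in time since handling as well as in treatment.

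**Figure D2:**
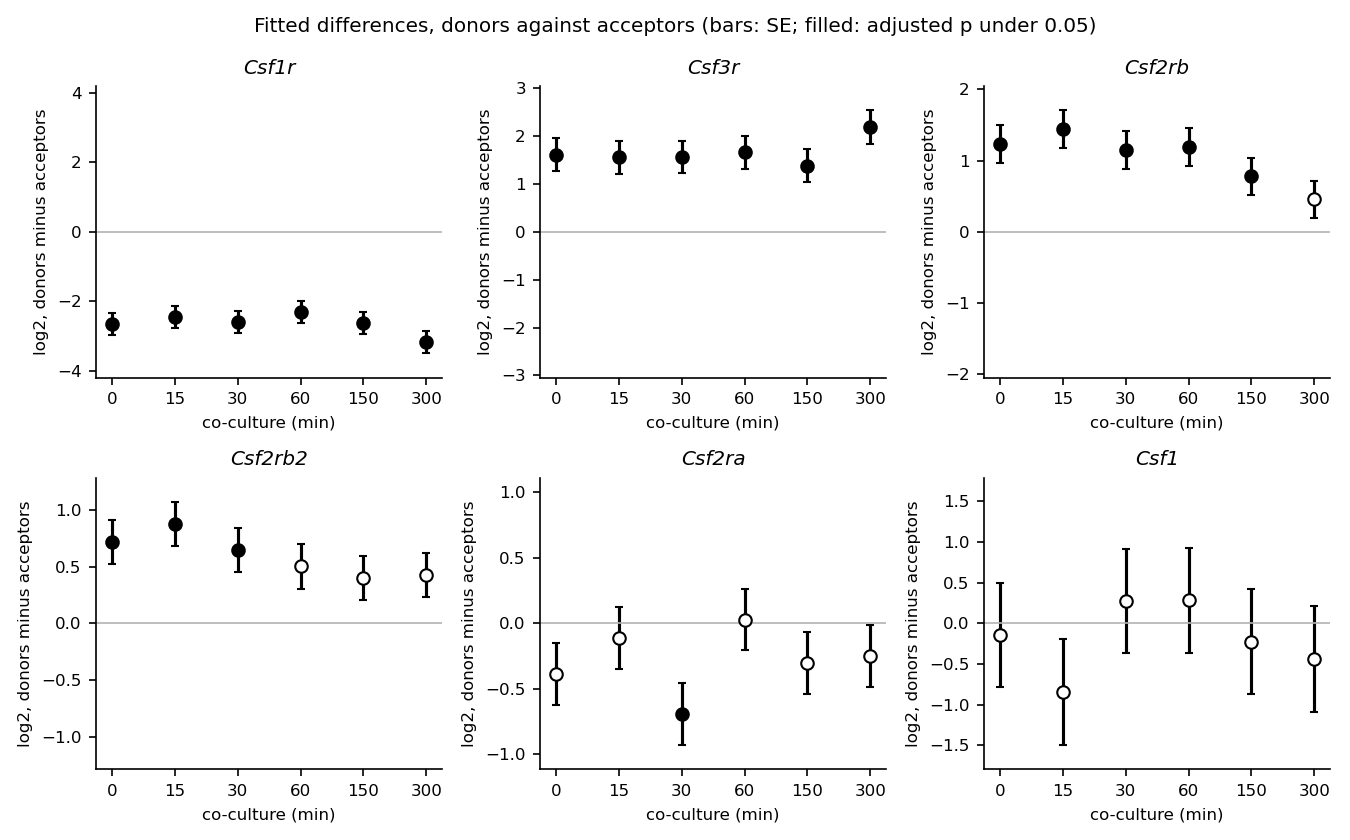
Fitted log2 difference, donors minus acceptors, by minutes of co-culture for the 6 genes other than Csf3, with bars of 1 SE; filled points passed at an adjusted p of 0.05. Csf1r stays between −3.17 and −2.32 and Csf3r between 1.38 and 2.19, while Csf2rb runs between 0.46 and 1.44.

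Within a population, no change over time passed for any of the 7 genes. In donors, the 30 comparisons of a later time with 0 min for the 6 genes other than Csf3 gave log2 changes of −0.79 to 0.30, with 0 unadjusted p under 0.05. In acceptors they were −0.66 to 0.77, and 2 had an unadjusted p under 0.05, both at 300 min. These were Csf1r (0.77, adjusted p = 0.575) and Csf2rb (0.62, adjusted p = 0.605), and without the acceptor library that stood apart they were 0.04 and 0.34. Of all genes, 0% passed at each later time in donors, and 0%, 0%, 0.00767%, 0.0153% and 0.00767% passed at the 5 later times in acceptors. F tests for any change over the 6 times gave 0 of the 7 in donors and 0 in acceptors (0% and 0.0153% of all genes), and for a difference between the time courses also 0 (0.0153% of all genes). Unadjusted p under 0.05 were found in these 3 tests for 0, 2 and 0 of the 7. DESeq2 and limma-voom likewise passed none of the 7 in these tests. Csf2rb had the only difference in change by 300 min with an unadjusted p under 0.05, donors minus acceptors, at −0.78 ± 0.37 (adjusted p = 1.00).

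When the 13 groups were put in order of their mean level, Csf1r was highest in acceptors at 300 min and lowest in donors at 30 min. For Csf1r, Csf3 and Csf3r, 1 of the 12 pairs of neighbours in the order did not overlap, the step between donors and the other groups. For Csf2rb2 it was also 1 of 12, but between donors at 60 min and donors at 300 min, and donors at 300 min overlapped the next group, acceptors at 150 min. For Csf1, Csf2ra and Csf2rb all 12 pairs of neighbours overlapped. For Csf2rb the overlap of donors with acceptors came from the acceptor library that stood apart (580 CPM). The other 17 acceptor libraries had at most 397 CPM, and the lowest donor library 487 CPM. Csf2rb and Csf2rb2 were both highest in donors at 15 min and lowest in the control, and all 6 donor groups filled the top 6 places for these 2 genes, Csf3 and Csf3r. Csf3 passed the filter on low counts through donor groups alone. Shares of all genes with such steps or orders were not counted.

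The runs of library numbers divided some of the genes within donors. In donors of run 2, Csf3 had 4.003 to 10.1 CPM in 6 libraries, against 0.655 to 2.69 CPM in the 12 libraries of the other runs. Csf3r went the other way there, with 51.2 to 74.0 CPM in run 2 and 90.5 to 109 CPM in the others, and Csf2rb had 690 to 976 CPM in run 2 and 487 to 648 CPM in the others. These 3 genes thus had no overlap between run 2 and the other runs among donors. The share of all genes with such a split was not counted. In a test added after seeing the data, the run term of an edgeR fit over all 39 libraries passed for Csf1 (adjusted p = 0.00128), Csf3 (0.00664) and Csf3r (0.00333), and for 17.6% of all genes. It did not pass for Csf2rb (adjusted p = 0.711), but the term takes the same shift in all populations. Medians of Csf2rb in runs 1, 2 and 3 were 538, 766 and 546 CPM in donors and 303, 264 and 308 CPM in acceptors. A run shift that differs between populations is not tested by this term. Csf1 was highest in run 1, with medians of 20.3, 8.84 and 7.70 CPM in donors and 18.1, 11.3 and 10.95 CPM in acceptors of runs 1, 2 and 3.

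Within runs the differences between donors and acceptors kept their direction for most genes. Of 18 pairs of a donor and an acceptor library of the same run and time, Csf1r was lower in donors in 18, and Csf3 and Csf3r were higher in 18. Csf2rb and Csf2rb2 were higher in donors in 17 of the 18, Csf2ra was lower in 14, and Csf1 was lower in 10. Shares of all genes with such pair counts were not taken, and Csf3 passed the filter on low counts through donor groups alone. Without all libraries of run 2, the number of the 7 genes that passed between donors and the control at 0 min was 3 in place of 5, while 10.5% of all genes passed in place of 19.7%, with Csf2rb2 (log2 0.76, adjusted p = 0.0893) and Csf3 (adjusted p = 0.130) lost.

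**Figure D3:**
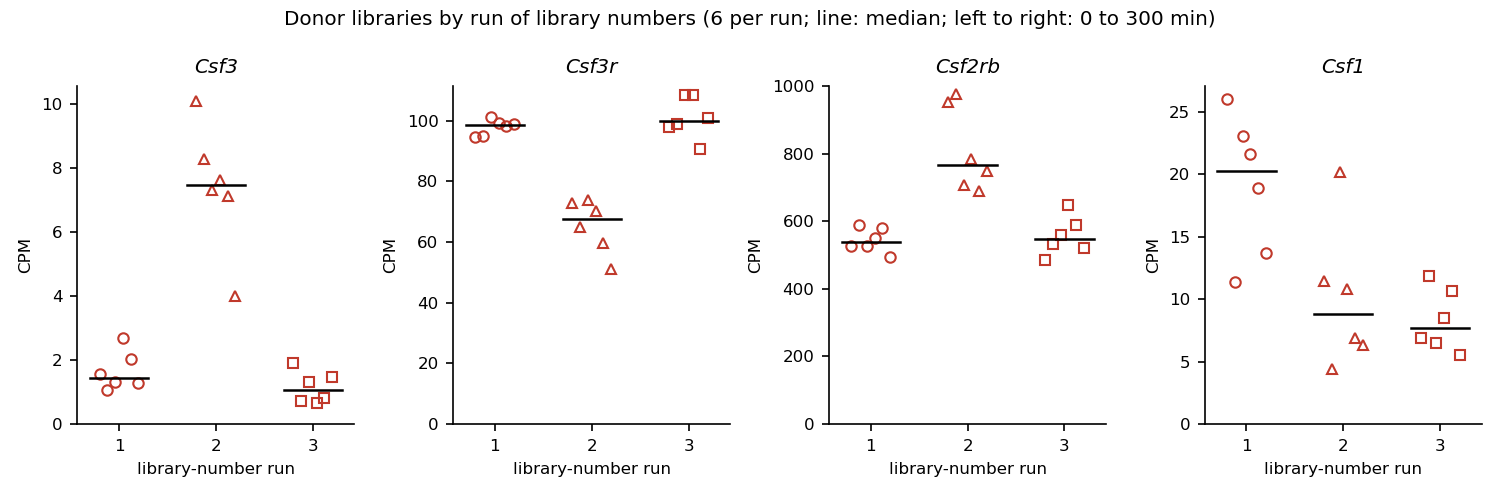
Levels (CPM) of Csf3, Csf3r, Csf2rb and Csf1 in donor libraries split by run of library numbers, with 6 libraries a run, each point 1 library and lines at the medians. Run 2 holds the highest Csf3 levels (4.003 to 10.1 CPM) and the lowest Csf3r levels (51.2 to 74.0 CPM).

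Across the 13 group means, Csf1r ran opposite to Csf3 and Csf3r, with Pearson correlations of −0.99 each over 13 groups on the log2 scale. Csf3 and Csf3r had a correlation of 0.97, and Csf2rb and Csf2rb2 of 0.91. The 13 means share 1 step between donors and the rest, and these values are descriptions. By the same measure the genes most like Csf1r were Cnbd2 (0.999), Emp3 (0.997) and Tmem176a (0.997). Csf3 was most like Cd40, Tnfrsf1b and AA467197 (0.997, 0.996 and 0.996), and Csf3r most like Bcl2a1b, Emp1 and Lasp1 (0.997, 0.994 and 0.994). Nearest to Csf2rb were Tgm2, Agpat3 and Rnf149 (0.997, 0.992 and 0.992), and nearest to Csf2rb2 were Tspan13, Eepd1 and Map2k3 (0.972, 0.963 and 0.963). Nearest to Csf2ra were Bin2, Rab11fip3 and Dlgap4 (0.917, 0.903 and 0.897).

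Of 8 other ligands and receptor chains listed for the family, 4 were in the table, 3 were tested and none passed between donors and acceptors at 0 min (median log2 −0.27, against −0.03 over all genes). Il34, the second Csf1r ligand, had 51 reads in 14 of the 39 libraries and was not tested. Il3ra, the alpha chain of the interleukin-3 receptor, had a log2 difference of −0.27 ± 0.37 (adjusted p = 0.650). Csf2, Il3, Il5 and Il5ra had no row under these symbols in the raw counts, so they were not analysed here.

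Adaptors and kinases that relay these receptors' signals were called in both directions between donors and acceptors at 0 min, with 11 of 24 higher and 4 lower (median log2 0.67), against 12.1% higher and 10.7% lower of all genes. Syk, a tyrosine kinase of immune receptors, had 467, 516 and 523 CPM as its donor values in order, against 109, 133 and 144 CPM in acceptors (log2 1.963, adjusted p = 1.17e-09). Stat3, the transcription factor downstream of the G-CSF receptor, was higher (1.497, adjusted p = 3.54e-05). Plcg2, a phospholipase, and Pik3cd, a catalytic subunit of PI3-kinase, were lower (−1.17 and −0.90, adjusted p = 8.40e-05 and 1.14e-04).

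Genes of receptor shedding and down-regulation had 3 of 17 tested members higher and 2 lower (median 0.55), shares near those of all genes (12.1% and 10.7%). Socs3, an inhibitor of cytokine receptor signalling that acts on the G-CSF receptor, had 79.0, 103 and 113 CPM in donors and 1.39, 3.79 and 4.40 CPM in acceptors, ordered from low to high. Its log2 difference was 4.93 ± 0.65 (adjusted p = 9.67e-07). Cish, another such inhibitor, was higher in donors by 3.62 ± 1.151 (adjusted p = 0.0211) at 145 reads against 14, and it did not pass against the control (adjusted p = 0.0785). Sla, an adaptor that dampens receptor signalling, was higher (1.25), and Spred1, an inhibitor of the MAP kinase pathway, was lower (−0.88).

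Transcription factors known to act on these receptor genes or downstream of them were called 3 higher and 3 lower of 15 tested, against 12.1% higher and 10.7% lower of all genes, with a median of −0.03 equal to that of all genes. Cebpb and Bhlhe40 were higher in donors (log2 1.82 and 2.64, adjusted p = 8.25e-06 and 5.32e-05). Egr2 and Cebpd were lower (−2.16 and −1.61, adjusted p = 3.38e-05 and 2.47e-04). Spi1 encodes PU.1, whose motif was searched, and was chosen after its values were seen. Its level was 348 ± 53.9 CPM in donors and 337 ± 57.7 CPM in acceptors (SD, n = 3 each). The log2 difference was 0.05 ± 0.21 (adjusted p = 0.902).

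Of 17 tested genes listed as induced by CSF signalling, 10 were higher in donors than in acceptors at 0 min and none lower (median 1.17), against 12.1% and 10.7% of all genes. The members with the smallest adjusted p were Bcl2a1a, Ccl22, Id2 and Mcl1. Bcl2a1a, a survival gene with near-identical copies whose reads may be split among them, was higher by 2.25 on the log2 scale. Ccl22, a chemokine gene, had 239 reads over the 3 donor libraries, 1 over the 3 acceptor libraries and 4 over the 3 control libraries. Like Csf3, it and others of the 10 may have passed the filter on low counts through donor groups alone. The count of 10 is therefore a description. Id2, a transcriptional inhibitor, and Mcl1, a survival factor, were higher by 1.14 and 0.94. Of 11 tested macrophage genes known to depend on M-CSF, none was higher and 5 were lower (median −1.65), against the same shares of all genes. Cx3cr1, the fractalkine receptor of microglia, had 5.55, 6.18 and 8.53 CPM in donors and 138, 262 and 640.5 CPM in acceptors, from low to high, and differed by −5.68 ± 0.66 (adjusted p = 9.94e-08). Trem2, a lipid receptor of microglia, Igf1, a growth factor gene, and Mrc1, the mannose receptor, were lower, with log2 differences of −2.16, −1.66 and −2.0. Between donors and acceptors at 300 min there were 8 of 17 higher and none lower among the induced genes, and 6 of 11 lower and none higher among the M-CSF-dependent ones, where 11.4% of all genes were higher and 11.6% lower.

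**Figure D4:**
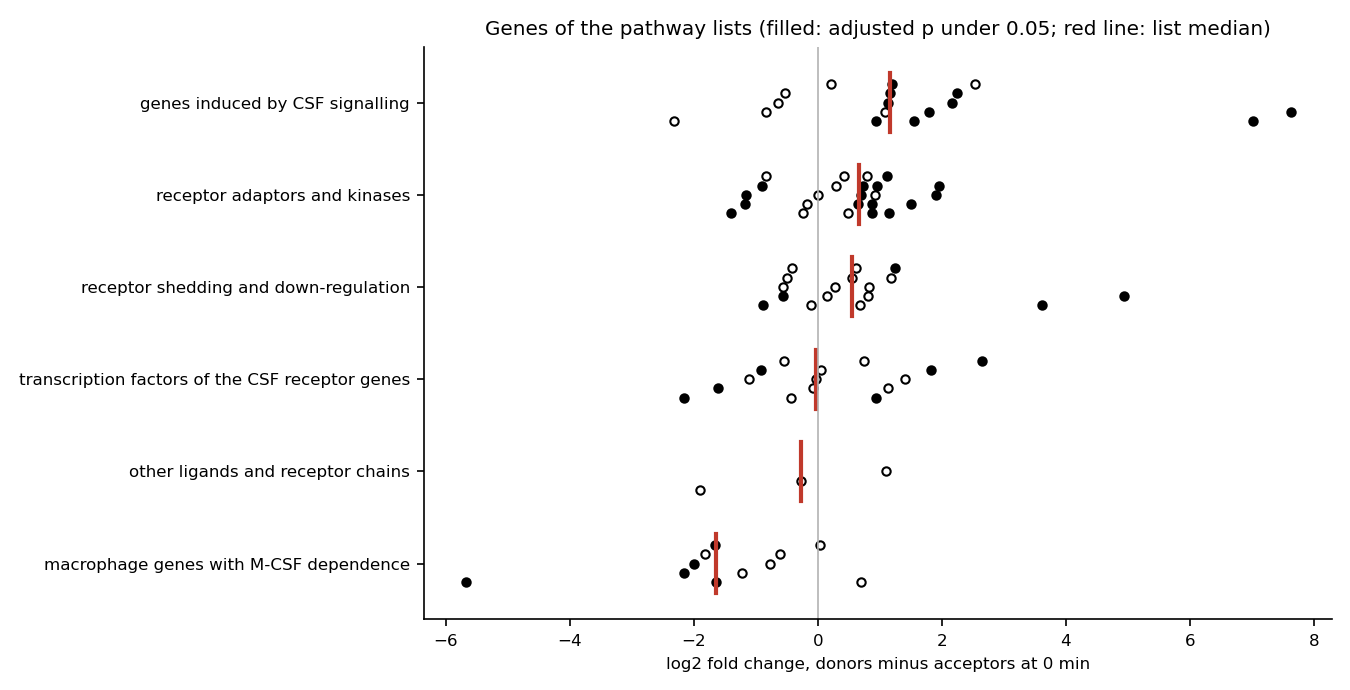
Fitted log2 differences, donors minus acceptors at 0 min, for every tested gene of each pathway list, 1 point a gene, with filled points past the threshold and red lines at the list medians. The medians run between −1.65 for macrophage genes known to depend on M-CSF and 1.17 for genes induced by CSF signalling.

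Markers of other cells also differed between the populations. Of 12 neutrophil markers 7 were in the table, and their summed level was 879 to 1356 CPM in donors, 1.21 to 6.72 CPM in acceptors and 1.84 to 2.79 CPM in the control. Lcn2, a secreted protein gene on that list, made up 833 to 1307 CPM of it in donors, and S100a8 14.2 to 93.3 CPM. Mmp8, a collagenase gene of neutrophil granules, had 3.72 to 21.4 CPM in donors, 0.121 to 2.10 CPM in acceptors and 0.180 to 0.766 CPM in the control. Of the 4 markers tested, 3 were called higher in donors than in acceptors at 0 min and none lower. Of all genes, 12.1% were higher and 10.7% lower there. S100a8 had a median of 0.251 CPM in acceptors, so its passing of the filter on low counts may rest on donors. The other 4 of the 7, Mpo, Cxcr2, Ltf and Camp, also granule and receptor genes of neutrophils, were each at or under 1.54 CPM in every donor library, with a median of 0 for Mpo and Ltf. Without Lcn2 the sum was 36.0 to 48.5 CPM in donors of run 1 and 19.3 to 34.9 CPM in run 2. In run 3 it was 78.3 to 112 CPM. The donor medians of Csf3r in runs 1, 2 and 3 were 98.6, 67.6 and 99.85 CPM. Those of Csf3 were 1.44, 7.47 and 1.06 CPM, and a relation to the marker sum was not tested.
The sums for fibroblasts and vessels (8 of 10 markers in the table) were 14.0 to 24.6 CPM in donors, 1.42 to 6.50 CPM in acceptors and 2.95 to 3.97 CPM in the control. The higher donor sum lay mostly in Dcn and Pecam1, with medians of 7.35 and 6.83 CPM in donors and 0 and 0.367 CPM in acceptors. Medians of Col1a1, Col1a2, Col3a1 and Cdh5 were at or under 0.24 CPM in both, and that of Pdgfrb was lower in donors (0.0945 against 0.546 CPM). For T, B and NK cells (4 of 9) the sums were 0.0908 to 3.34 CPM, 4.56 to 17.5 CPM and 3.42 to 15.1 CPM in donors, acceptors and the control. Most of this was Cd4, with medians of 1.06 CPM in donors and 8.27 CPM in acceptors. For astrocytes (10 of 10) the sums were 6.43 to 25.2 CPM, 13.9 to 48.2 CPM and 17.0 to 39.98 CPM in that order. Neuron markers (9 of 9) summed to 1.06 to 12.2 CPM in donors, 2.43 to 25.3 CPM in acceptors and 3.75 to 19.3 CPM in the control, and oligodendrocyte lineage markers (10 of 10) to 152 to 326 CPM, 182 to 361 CPM and 227 to 237 CPM in that order. The part of such cells in the levels of the 7 genes was not tested.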

How the data were processed

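Raw counts of reads for each gene symbol were deposited by the authors, from QuantSeq 3′ mRNA libraries read once over 100 bases, per the labels' protocols. They also deposited a normalized signal made with DESeq2, per the file headers, which differs from the raw counts by 1 factor per library (0.614 to 1.40) and was used here only for that check. STAR, Partek, DESeq2 and build mm10 are named in the submitters' processing notes, with no versions, and the sources used here do not say how strand, duplicates or shared reads were treated.

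Counts of all 39 libraries were fitted in R 4.3.3 with edgeR 4.0.16: filterByExpr by group (13034 genes with 99.97% of the reads), TMM factors, 1 mean per group, the quasi-likelihood test, and Benjamini-Hochberg adjustment over all genes tested with 0.05 as threshold. The biological coefficient of variation was 0.383. An SE is |log2 fold change| over the root of F, and 95% intervals take the normal multiple of it. Exact permutation of 3 against 3 libraries reaches no p below 0.10. CPM use TMM-scaled totals. Positions come from GENCODE M21. DESeq2 1.42.0 and limma 3.58.1 served as alternatives, with other scalings, filters, sample choices, the runs as a block, and each library left out. The test was checked on simulated counts.

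The 7 genes, the pathway and marker lists and the promoter motifs were chosen with earlier results of these data known. All 7 genes are named. From each pathway list the text names up to 4 called genes with the smallest adjusted p between donors and acceptors at 0 min. For each of the 7, the 3 genes most alike over 13 group means (log2 CPM, prior count 2) are named. Il34, Il3ra and Spi1 fall outside this rule and were chosen after their values were seen. Replicate numbers only name libraries. Library numbers give the runs, and same-run libraries paired, with every correlation of their deviations over 0.1, for acceptors against control at 0 min, donors against acceptors at 15 min, every later time in acceptors, and 15, 30, 60 and 300 min in donors, each against 0 min. The genes whose pattern was most like that of Csf1 are not reported here.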

Additional observations from a re-analysis of the deposited data

How the results depend on the processing

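Csf1r and Csf3r kept direction and call between donors and acceptors at all 6 times, and Csf2rb from 0 to 60 min, under each of 13 alternatives (other tools, scalings, filters and sample choices, and each library left out). With the runs of library numbers as a replicate block, the number of the 7 genes called was the same in each comparison. It was 5 for donors against control at 0 min, and 5, 5, 6, 4, 4 and 3 against acceptors over the 6 times. These counts include Csf3, which passed the filter on low counts through donor groups alone. Without Csf3, the fit with no block called 4 against the control and 4, 4, 5, 3, 3 and 2 against acceptors. In that fit 19.7% of all genes passed against the control and 21.9% to 23% against acceptors. Total-count scaling moved every difference of donors by −0.40 to −0.20 on the log2 scale (−0.36 against the control at 0 min). Higher calls were then 21.9% to 30.8% of all calls in place of 49.5% to 56.3%. Under it Csf2rb2 lost its call at 0, 15 and 30 min against acceptors (adjusted p = 0.205, 0.115 and 0.410) and at 300 min against the control (0.276), Csf2rb at 150 min (0.225), and Csf2ra became called at 0 and 150 min (adjusted p = 0.0279 and 0.0428). The same scaling reversed Csf1 at 30 and 60 min (−0.11 and −0.079) and Csf2ra at 60 min (−0.35; −0.025 with only the compared groups in the fit). DESeq2 called Csf2rb2 at 60 min (0.0479). For Csf1 in donors at 300 min against the control, limma-voom and the fit of the compared groups lost the call (0.114 and 0.0616), and that fit also lost Csf2rb2 (0.0823).

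Without run 2, added after seeing the data, 3 of the 7 genes were called for donors against control at 0 min (10.5% of all genes), 3 against acceptors at 15 min (12.3%), 3 at 30 min (11.9%), and 3 for donors at 300 min against control (9.12%), as without run 1 there (3, 11.7%). Without run 3, 2 were called at 150 min (12%), 1 of them other than Csf3. Against acceptors Csf3 was lost without run 2 at 15 and 30 min (adjusted p = 0.0579 and 0.211) and without run 1 at 300 min (0.0543), and Csf3r without run 3 at 15 and 150 min (0.0666 and 0.0786). Csf2rb2 was lost there without run 2 at 0, 15 and 30 min (0.117, 0.0591 and 0.132). It was also lost without run 1 at 30 min (0.114). Whichever run was left out, Csf2rb at 150 min (0.0868 to 0.131) and Csf2ra at 30 min (0.114 to 0.137) were lost. Fewer libraries and fewer calls over all genes are part of these settings.

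With 1 library left out, all genes called numbered 1664 to 2211 for donors against control at 0 min (2565 with all), 1954 to 2506 against acceptors at 0 min (2975) and 1910 to 2389 at 150 min (2875). Only the compared groups gave 719 at 300 min (3002). Log2 differences that changed sign were never called. They ranged between −0.087 and 0.18 (Csf1r) and −0.15 and 0.25 (Csf3r) for acceptors against control at 0 min. Donors against acceptors gave −0.84 to 0.21, −1.21 to 0.13, −0.047 to 0.65, −0.22 to 0.54 and −0.70 to 0.23 for Csf1 at 0, 15, 30, 60 and 150 min, and −0.38 to 0.20 and −0.14 to 0.20 for Csf2ra at 15 and 60 min. Csf2ra gave −0.17 to 0.13 for donors at 300 min against control. In acceptors at 300 against 0 min, Csf2ra gave −0.027 to 0.31 and Csf2rb2 −0.24 to 0.18. The causes were not tested.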
